A study of Mus musculus with 8 samples.

Results

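Guidance genes encode the cues and receptors by which growing axons, vessels and epithelial sheets find their way, and 65 of the 19150 genes in the deposited table belonged to the ephrin, semaphorin, Slit and netrin systems. They were taken by symbol: 8 ephrins and 12 Eph receptors, 20 semaphorins with 9 plexins and 2 neuropilins, 3 Slits and 4 Robo receptors, and 3 netrins with 4 Unc5 receptors. All 65 had enough reads to enter the tests, among 18164 genes tested. The RNA came from the whole lung of E17.5 embryos on a C57BL background, late in mouse gestation, without oesophagus, trachea and bronchi. The groups were female controls, male controls, female mutants and male mutants, with 2 libraries in each of the 4; mutants were labelled as expressing a constitutively active TGF-β receptor 1, with the TGF-β pathway activated in the lung epithelium. The labels name neither the promoter or Cre line that drove the receptor nor the genotype of the controls, so what controls and mutants share beyond the strain is not known from them. Whether each library is a separate embryo is also not stated, and the p-values measure the spread between libraries, which may be technical.

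Ephrins are membrane-bound ligands that signal to Eph receptor tyrosine kinases on touching cells and can signal back into the cell that carries them. Semaphorins, secreted or membrane-bound, act through plexins, and most secreted members of class 3 need a neuropilin as co-receptor; neuropilins also bind VEGF. Slits repel cells through Robo receptors, and netrins attract or repel through Dcc, neogenin and Unc5 receptors. In the developing lung, members of these families are known for roles in vessel growth, innervation and the branching of the epithelium.

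The promoters of the 2 guidance genes that passed the test in male mutants are shown here, as the 250 bases before the RefSeq start site on GRCm38.p6, with capitals for CAGAC or its reverse complement GTCTG, the short element bound by SMAD proteins. They are shown because these genes went opposite ways. Epha4 (chr1:77515089-77515338, minus strand) and Sema3a (chr5:13396534-13396783, plus strand) read, 5′ to 3′ on the strand of the gene:
Epha4: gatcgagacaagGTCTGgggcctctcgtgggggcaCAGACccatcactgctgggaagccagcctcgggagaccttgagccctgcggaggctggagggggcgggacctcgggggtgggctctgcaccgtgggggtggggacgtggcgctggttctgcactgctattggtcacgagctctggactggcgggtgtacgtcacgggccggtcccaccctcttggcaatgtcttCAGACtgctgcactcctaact
Sema3a: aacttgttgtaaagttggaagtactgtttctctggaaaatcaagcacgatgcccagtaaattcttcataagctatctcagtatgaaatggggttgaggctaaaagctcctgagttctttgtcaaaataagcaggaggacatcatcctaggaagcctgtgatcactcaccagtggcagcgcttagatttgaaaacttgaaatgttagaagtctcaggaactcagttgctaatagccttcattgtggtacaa
The Epha4 window held 14 CG pairs and the Sema3a window 2. The medians were 6 over all RefSeq promoter windows of this length and 15.5 over those of guidance genes. The Epha4 window held 3 matches, and the Sema3a window held 0 matches. Such a match, on either strand, stood in 42.2% of 32851 RefSeq promoter windows of this length and in 36 of the 72 windows of the 56 guidance genes that had an entry. A match of this length is a description of the letters and not a binding site, and the window without a match says nothing of SMAD binding to the gene. The palindrome GTCTAGAC stood in 0.167% of all windows and in 0 of the windows of guidance genes. The RefSeq start of Sema3a lies inside the longer span that GENCODE M21 gives the gene (chr5:13125414-13602565), so other start sites were not covered; Epha4 spans chr1:77367185-77515088.

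Each library held between 17561012 and 20243205 reads counted in genes, and the guidance genes together held 0.444% to 0.481% of them. All 8 libraries matched their sex label, while Tgfbr1 itself did not separate the genotypes (log2 difference 0.01 ± 0.09 SE, adjusted p = 0.996), so the data give no direct check of the genotype labels. The labelled tissue was checked against its markers. Nkx2-1, the transcription factor of lung epithelium, was at 363 to 534 CPM (reads scaled to library size) and the mesenchymal factor Tbx4 at 161 to 198 CPM in the 8 libraries. Groups share the numbers 1 and 2, and libraries with the same number deviated together in all 6 pairs of groups, least between male controls and male mutants (r = 0.180 across genes). Fits with the number as a block are therefore given beside the results on guidance genes whose call they change. Their p-values hold only if the number truly pairs the libraries, which was not tested. In that fit 5 guidance genes were higher in libraries numbered 2 than in those numbered 1 (7.69%, against 5.18% of all genes) and 7 lower (10.8%, against 6.83%).

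In control lungs the most abundant guidance transcripts were receptors, on the scale of CPM per kb of the longest transcript. Nrp1, the neuropilin that binds both class 3 semaphorins and VEGF, stood at 69.5 ± 7.66, the plexin Plxnb2 at 65.2 ± 4.33 and Plxnd1, a plexin of endothelial cells, at 54.2 ± 1.91 CPM per kb (SD, n = 4). The ligand Efna1 followed at 48.9 ± 8.87, then Ephb4, the Eph receptor of veins, at 40.5 ± 3.14, and the ligand Efnb1 at 32.7 ± 1.131 CPM per kb. On this scale Nrp1 and Plxnb2 did not differ beyond their spread, nor did Plxnd1 and Efna1 or Efna1 and Ephb4, while Ephb4 and Efnb1 did.

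Most families spanned a wide range of levels, the netrins and neuropilins a narrower one. Sema3a, a repellent of axons and of endothelial cells, led the semaphorins at 29.8 ± 2.60 CPM per kb, and Slit2, a repellent ligand of Robo receptors, led the Slits at 25.8 ± 2.22. The Slit receptor Robo1 stood at 19.1 ± 1.34 and Robo4, the endothelial Robo, at 15.9 ± 0.77 CPM per kb. The netrin receptor genes Unc5c (12.4 ± 2.67) and Unc5b (11.3 ± 1.02) did not differ beyond their spread. Of the netrins, Ntn4, a netrin of basement membranes, was at 2.62 ± 0.712 and Ntn1, the founding netrin, at 1.91 ± 0.442 CPM per kb. The lowest genes were Plxnb3, Epha10, Robo3 and Slit1, with Slit1 at 0.0843 ± 0.0311 CPM per kb and 57 reads in all 8 libraries.

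The order of the genes depended on the length used. In 49 of the 52 guidance genes whose exon number matched the annotation, the length behind the authors' deposited RPKM equalled the summed exons of all transcripts plus the number of exons, which lowers the RPKM of genes with many transcripts. By that RPKM the leading genes were Plxnd1 at 41.1, Plxnb2 at 27.2, Efnb1 at 26.0, Nrp1 at 19.5 and Robo1 at 19.0. Ephb4 stood at 8.68 by that RPKM, below Efnb1. With each exon base of a gene counted once, Plxnb2 led at 54.9 CPM per kb and Nrp1 ranked 6 at 25.9. Sema3a ranked 7 of 65 by the longest transcript and 19 by the deposited RPKM, and Slit2 ranked 8 and 34. Comparisons of 1 gene between libraries do not depend on this length.

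**Figure D1:**
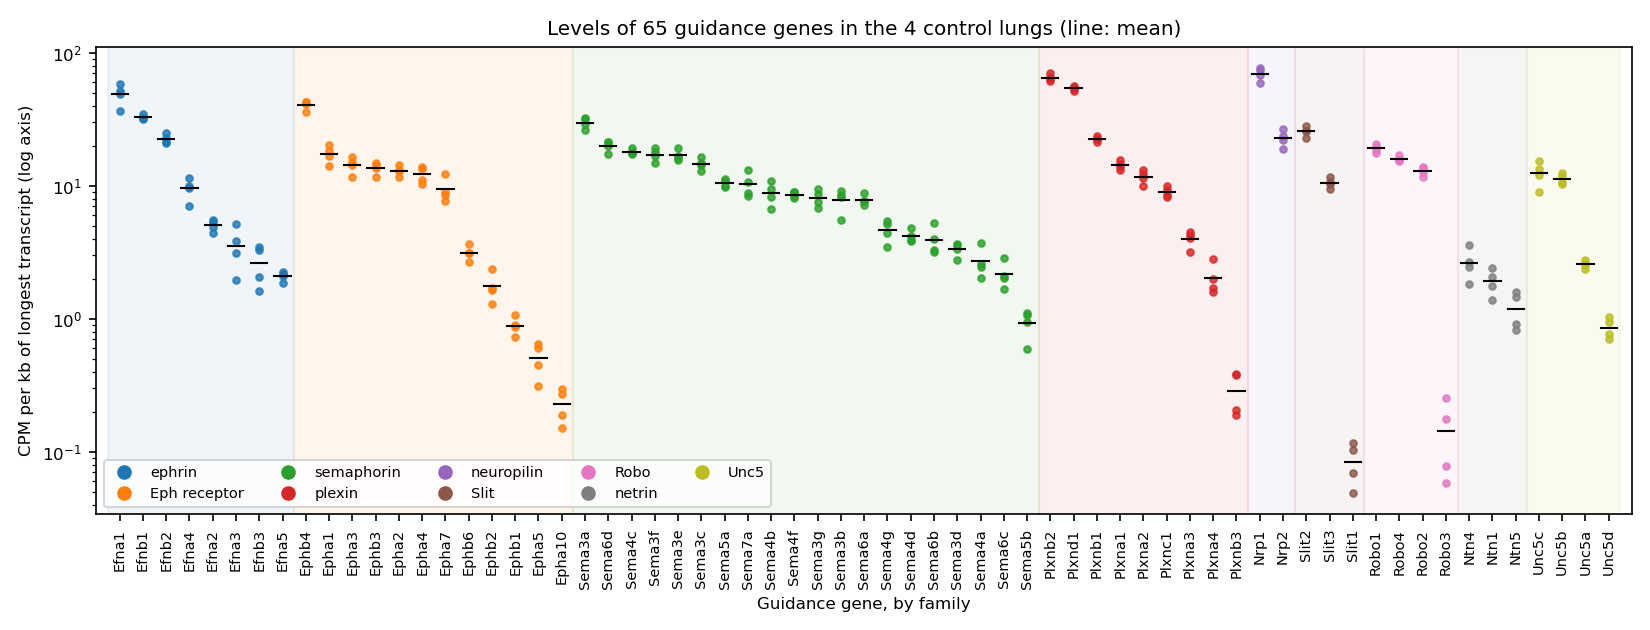
Level of each of the 65 guidance genes in the 4 control lungs, as CPM per kb of the longest transcript on a log axis, ordered by family and level; points are libraries and lines are means. Nrp1, Plxnb2 and Plxnd1 lie highest, and Slit1 lies lowest at 0.0843.

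The series title refers to males, and in their comparison 2 of the 65 guidance genes passed the test (3.08%; 1.29% of all genes tested were called): the receptor gene Epha4 rose (0.259% of all genes rose) and the ligand gene Sema3a fell (1.04% fell). The test was edgeR's quasi-likelihood test with Benjamini-Hochberg adjustment over all genes, with a threshold of 0.05. At an unadjusted p under 0.05 there were 20 of 65 (30.8%, against 19.3% of all genes), 10 higher and 10 lower in mutants. The median log2 change over the 65 genes was -0.05, with 27 positive and 38 negative, against 0.01 over all genes. The median size of the change was 0.25 for the guidance genes and 0.23 for all genes. With the replicate block, 20 guidance genes passed (30.8%, against 16.7% of all genes), 10 higher (7.3% of all genes) and 10 lower (9.43%). Both male mutants lay above both male controls in 15 guidance genes (23.1%, against 26.9% of all genes) and below them in 18 (27.7%, against 25.5%).

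Epha4 (ENSMUSG00000026235), an Eph receptor that binds ephrins of both the A and the B class, was at 84.7 and 88.3 CPM in female controls and 86.2 and 88.9 in female mutants. It was at 65.6 and 69.5 CPM in male controls and 130.5 and 129 in male mutants. The male mutants were thus the highest and the male controls the lowest of the 8 libraries, and the male groups did not overlap. The male means were 67.6 ± 2.74 and 129.5 ± 1.30 CPM (SD, n = 2 each), a log2 change of 0.94 ± 0.09 (SE) with edgeR adjusted p = 0.0196, or 2.7e-05 with the replicate block. The log2 change stayed between 0.90 and 0.98 without any 1 male library, but the adjusted p was 0.115 without control male 1, 0.0863 without mutant male 1 and 0.152 without mutant male 2.

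Sema3a (ENSMUSG00000028883) was at 191 and 172 CPM in female controls, 129 and 145 in female mutants, 187 and 157 in male controls and 104 and 106 in male mutants. All 4 mutant libraries lay below all 4 control libraries. The male means were 172 ± 21.4 and 105 ± 1.31 CPM (SD, n = 2 each), a log2 change of -0.71 ± 0.12 (SE) with edgeR adjusted p = 0.0360, or 0.000895 with the block. Without 1 male library the change ran from -0.83 to -0.58, and the adjusted p was 0.224 without control male 1, 0.0518 without control male 2, 0.125 without mutant male 1 and 0.248 without mutant male 2. Exons of Epha4 and Sema3a overlapped no other gene in the annotation.

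**Figure D2:**
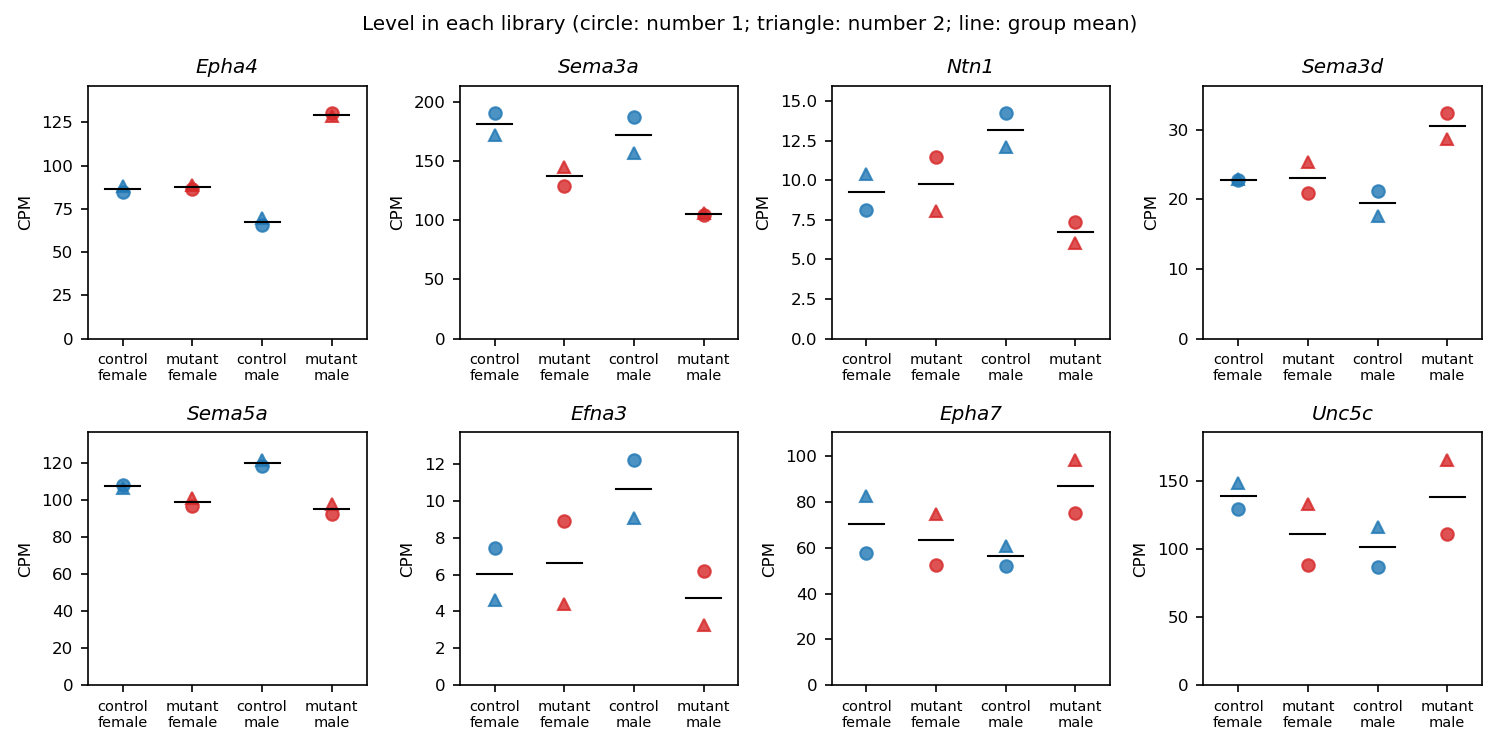
CPM of 8 guidance genes in each library, on linear axes from 0; circles are libraries with the number 1, triangles those with the number 2, and lines are group means of 2 libraries. Epha4 in male mutants, at 130.5 and 129 CPM, lies above the other 6 libraries, and Sema3a is lower in all 4 mutant libraries than in all 4 controls.

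Of the other Eph receptors, 7 of the 12 had a positive change in males counting Epha4, and 1 of 12 was called. With the replicate block 5 rose (Epha4, Epha7, Epha3, Ephb2 and Ephb6) and Epha1 fell, where 7.3% of all genes rose and 9.43% fell. Epha7, a receptor for A-class ephrins, was at 52.2 and 60.8 CPM in male controls and 75.4 and 98.6 in male mutants, against 57.9 and 82.9 in female controls and 52.4 and 74.6 in female mutants. The number 2 library was higher in every group, and the male change of 0.62 on the log2 scale had adjusted p = 0.192, or 0.00141 with the block. Ephb2, a receptor for B-class ephrins, was at 14.1 and 17.8 CPM in male controls, 23.3 and 25.6 in male mutants, 18.6 and 25.8 in female controls and 24.5 and 21.3 in female mutants (0.61, adjusted p = 0.148; 0.0176 with the block). Ephb6, an Eph receptor whose kinase domain is inactive, was at 13.6 and 10.1 CPM in male controls and 17.1 and 16.1 in male mutants, with 11.7 to 13.0 in the 4 female libraries (0.48, adjusted p = 0.181; 0.0382 with the block). The male mutants lay above the other 6 libraries for Ephb6, and the male controls lay below the other 6 for Ephb2.

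Epha1 went the other way. This receptor, known from epithelial cells, was at 65.7 and 54.5 CPM in male controls and 44.2 and 39.2 in male mutants, against 60.1 and 45.9 in female controls and 57.8 and 50.8 in female mutants. The male change was -0.53 (adjusted p = 0.141; 0.00307 with the block). Its exons overlap those of Zyx on the opposite strand over 236 bases. With no strand setting of the counting stated, reads of these genes may be mixed. The same holds for smaller overlaps with opposite-strand genes in Efna4, Epha10, Plxna4 and Unc5c. Epha3, the Eph receptor with the highest deposited RPKM in controls (14.3), was at 81.1 and 65.6 CPM in male controls, 99.3 and 88.8 in male mutants, 85.8 and 93.4 in female controls and 80.3 and 82.0 in female mutants (0.36, adjusted p = 0.181; 0.0381 with the block).

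Among the 8 ephrins, 0 were called in males (1.29% of all genes were called). With the block Efna4 rose (7.3% of all genes rose) and Efna3 fell (9.43% fell). Efna4, a ligand of A-class receptors, was at 11.3 and 15.5 CPM in male controls and 19.1 and 20.1 in male mutants, against 18.3 and 16.02 in female controls and 13.8 and 15.8 in female mutants (0.55, adjusted p = 0.157; 0.0290 with the block). Efna3, another A-class ligand, was at 12.2 and 9.08 CPM in male controls, 6.19 and 3.27 in male mutants, 7.44 and 4.60 in female controls and 8.90 and 4.40 in female mutants (-1.18, adjusted p = 0.183; 0.00141 with the block). Efna3 was lower in the number 2 library of all 4 groups, and its 1024 reads share 344 exon bases with Gm15998 on the opposite strand, which had 830 reads. The ligand with the highest deposited RPKM, Efnb1, showed little difference: 112 and 105 CPM in male controls, 114 and 99.5 in male mutants, 106 and 104 in female controls and 122 and 101 in female mutants.

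Of the 20 semaphorins, 8 had a positive and 12 a negative change in males, where 9320 of 18164 genes tested had a positive one. Sema3a was the 1 called (1.29% of all genes were called). With the block, Sema3d and Sema5b rose (7.3% of all genes rose), and Sema3a, Sema4b, Sema5a and Sema7a fell (9.43% fell). Sema3d, a secreted class 3 semaphorin, was at 21.3 and 17.56 CPM in male controls and 32.4 and 28.6 in male mutants, against 22.7 and 23.0 in female controls and 20.9 and 25.3 in female mutants. The male mutants lay above the other 6 libraries; the change was 0.65 ± 0.15 (SE; adjusted p = 0.0762, or 0.00739 with the block and 0.0274 by DESeq2). Sema5a, a membrane semaphorin with thrombospondin repeats and the highest deposited RPKM of its family (10.4), was at 118 and 122 CPM in male controls, 92.3 and 97.6 in male mutants, 108 and 107 in female controls and 96.9 and 101 in female mutants. Its male change was -0.34 ± 0.09 (SE; adjusted p = 0.110, or 0.0148 with the block).

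Sema4b, a membrane-bound class 4 semaphorin, was at 37.4 and 42.6 CPM in male controls and 29.1 and 24.5 in male mutants, against 32.3 and 26.2 in female controls and 34.6 and 25.2 in female mutants (-0.58, adjusted p = 0.152; 0.0134 with the block). Sema7a, a semaphorin held in the membrane by a lipid anchor that also signals through integrins, was at 43.5 and 35.3 CPM in male controls, 28.8 and 25.01 in male mutants, 29.0 and 27.6 in female controls and 37.5 and 26.97 in female mutants (-0.55, adjusted p = 0.158; 0.00756 with the block). For Sema4b both male controls stood above the other 6 libraries, and for Sema7a mutant female 1 lay between them. Sema5b, at 2.73 to 7.72 CPM in the 8 libraries, is given only for its call with the block (0.78, adjusted p = 0.0244).

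Among the semaphorin receptors, of the 9 plexins 0 were called in males (1.29% of all genes were called). With the block Plxna3 rose (7.3% of all genes rose) and Plxna2 fell (9.43% fell). Plxna3, a partner of neuropilins in class 3 signalling, was at 21.9 and 27.9 CPM in male controls and 35.3 and 35.2 in male mutants, with 29.2 to 31.6 in the 4 female libraries (0.50, adjusted p = 0.117; 0.0105 with the block). Plxna2, another partner of the neuropilins, was at 146 and 135 CPM in male controls, 113 and 104 in male mutants, 127 and 110.4 in female controls and 141 and 114 in female mutants (-0.37, adjusted p = 0.184; 0.0123 with the block). The most abundant plexin by RPKM, Plxnd1, was at 370.3 and 389 CPM in male controls, 370.2 and 352 in male mutants, 358 and 379.7 in female controls and 395 and 347 in female mutants; the female groups overlapped, and the male groups touched at 370.3 and 370.2.

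Nrp1 was at 279 and 216 CPM in male controls, 226 and 245 in male mutants, 270.4 and 248 in female controls and 259 and 239 in female mutants, with mutants and controls overlapping in both sexes. Nrp2, the neuropilin of veins and lymphatic vessels, was at 178 and 159 CPM in male controls and 141 and 115 in male mutants, against 149.5 and 127 in female controls and 179.9 and 131 in female mutants (-0.40, adjusted p = 0.250; 0.0105 with the block). Of the lymphatic markers, Lyve1 was at 171 and 131 CPM in male controls and 121 and 112 in male mutants (-0.37, adjusted p = 0.245; 0.0169 with the block), while Prox1 (0.09) and Flt4 (-0.08) passed neither fit; their part in the value of Nrp2 was not tested. In whole lung RNA, fewer cells of a type and less RNA per cell cannot be told apart, here and in all results.

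For the Slit and netrin systems, 0 of 14 genes were called in males (1.29% of all genes were called). Slit2 was at 283 and 259 CPM in male controls, 213 and 223 in male mutants, 256 and 229 in female controls and 243 and 211 in female mutants (-0.31, adjusted p = 0.190; 0.0345 with the block). Slit3, the Slit with the highest deposited RPKM, was at 56.1 and 49.6 CPM in male controls, 54.8 and 61.3 in male mutants, 54.3 and 60.9 in female controls and 57.2 and 47.1 in female mutants. Of the 4 Robo receptors, 0 passed with or without the block; Robo1 was at 134 and 157 CPM in male controls, 157 and 152 in male mutants, 139 and 149 in female controls and 154 and 139 in female mutants. The Slit3 and Robo1 groups overlap.

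Ntn1 was at 14.3 and 12.1 CPM in male controls and 7.38 and 6.06 in male mutants, against 8.13 and 10.4 in female controls and 11.5 and 8.05 in female mutants. The male groups did not overlap, and the female groups did. The change was -0.97 ± 0.23 (SE; adjusted p = 0.0797), and it passed with the block (0.00605), by DESeq2 (0.0130) and when only the male libraries were fitted (0.0472). Ntn4, the netrin with the highest deposited RPKM, was at 13.0 and 9.69 CPM in male controls, 9.48 and 6.98 in male mutants, 8.89 and 6.71 in female controls and 14.9 and 6.94 in female mutants. Unc5b, an Unc5 receptor of vessel tips, was at 60.7 and 73.6 CPM in male controls, 80.7 and 74.7 in male mutants, 62.3 and 69.2 in female controls and 78.3 and 61.4 in female mutants. Unc5c, a repellent netrin receptor, was at 86.8 and 116 CPM in male controls, 111 and 166 in male mutants, 129 and 148 in female controls and 88.5 and 133 in female mutants (0.45 in males, adjusted p = 0.352; 0.0133 with the block), with the number 2 library higher in every group.

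**Figure D3:**
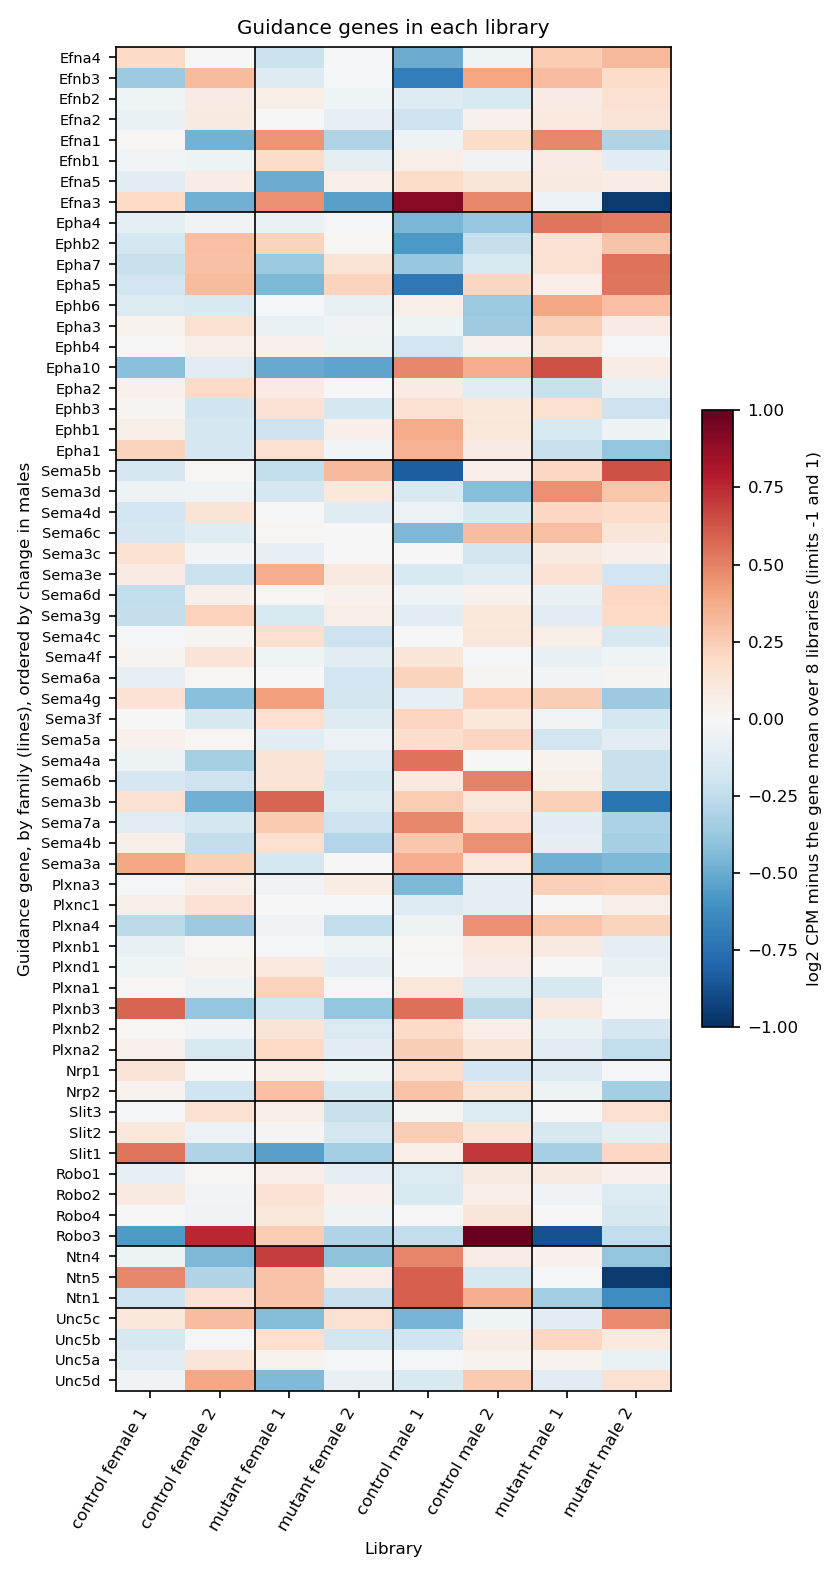
Log2 CPM of each guidance gene minus its mean over the 8 libraries (colour, limits -1 and 1), by library and by family, with genes ordered by the log2 change in males. The male mutants stand apart most for Epha4 and Sema3a, and in many rows libraries of 1 group differ as much as groups do.

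Some cell type markers moved with the male comparison, and their part in these results was not tested. In males 1.29% of all genes were called, and with the block 7.3% rose and 9.43% fell, shares to set beside each list. Lung mesenchyme (2 positive, 3 negative), macrophage (2 and 2) and erythroid markers (2 and 2) had 0 called. With the block 1 mesenchymal marker rose and 0 of the others passed. The summed dividing cell markers (Mki67, Top2a, Cdk1 and Ccnb1) were at 1008 and 1409 CPM in male controls, 1722 and 2293 in male mutants, 1689 and 2315 in female controls and 1146 and 1973 in female mutants; 4 of 4 were higher in male mutants, 0 called, and 4 with the block. The 9 lung epithelial markers summed to 11995 and 8934 CPM in male controls and 7999.5 and 6384 in male mutants. Of these 9 markers 8 were negative, 2 were called lower, and 8 were lower and 1 higher with the block. Sftpc made up most of the sum, at 9189 and 6516 CPM in male controls and 6276 and 5034 in male mutants. In all 4 groups the number 2 library had the lower epithelial sum and the higher dividing cell sum. Cartilage markers summed to 39.5 and 57.7 CPM in male controls and 105 and 98.2 in male mutants. All 3 tested members were positive, 1 was called and 3 with the block. Most of that sum was Sox9, at 34.0 and 47.9 CPM in male controls and 77.8 and 73.3 in male mutants. Acan and Matn1 were not tested. In sum the 4 mesothelial markers were at 402 and 213 CPM in male controls and 131 and 77.5 in male mutants, but that fall was in Msln (-3.27, adjusted p = 0.0286); the other 3 had positive changes and none of them was called. Of the smooth muscle and pericyte markers 3 of 4 were negative and Myh11 was called lower (-0.72, adjusted p = 0.0312). The 3 neuroendocrine markers tested were all negative, with 0 called and 2 lower with the block. Endothelial markers summed to between 1680.3 and 1896 CPM in all 8 libraries, with 1896 and 1845 in male controls and 1703 and 1758 in male mutants. In males 4 of these 5 markers were negative, with 0 called in either fit. Neuronal markers were low, at 8.19 to 16.5 CPM, with 3 of 8 tested, and Schwann cell markers were at 5.38 to 8.86 CPM, with Sox10 and Foxd3 not tested.

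In females 0 guidance genes and 0% of all genes were called. Both female mutants lay above both female controls in 4 guidance genes (6.15%, against 11.3% of all genes) and below them in 9 (13.8%, against 10.6%). Sema3a was the only guidance gene at an unadjusted p under 0.05 (1 of 65; 1.60% of all genes). Its log2 change was -0.40 ± 0.12 (SE), from 181 ± 13.1 CPM in female controls to 137 ± 11.2 in female mutants (SD, n = 2 each), with edgeR adjusted p = 1 and 0.366 with the block. The next genes by p were Sema3e, a ligand that binds Plxnd1 without a neuropilin, and Unc5d. Sema3e was at 131 and 107 CPM in female controls, 159 and 132 in female mutants, 112 and 114 in male controls and 137 and 109 in male mutants. Unc5d was at 7.03 and 9.43 CPM in female controls, 5.26 and 6.84 in female mutants, 6.46 and 8.64 in male controls and 6.68 and 8.01 in male mutants. DESeq2 called 0 guidance genes and 6 genes in all in females, and the block called 0 guidance genes and 14 genes in all (0.0771%).

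Over both sexes, 0 guidance genes and 0% of all genes were called, with 5 of 65 at an unadjusted p under 0.05 (7.69%, against 5.84% of all genes). Sema3a had the smallest p among them: the controls were at 177 ± 15.4 and the mutants at 121 ± 19.5 CPM (SD, n = 4 each), a log2 change of -0.56 ± 0.10 (SE; edgeR adjusted p = 0.458, or 0.221 with the block, which called 0 guidance genes and 0.0165% of all genes). Adjusted p was 0.00112 by DESeq2 and ran up to 1 over the alternatives; the authors' deposited table gives a false discovery rate of 2.4e-05. In 3 guidance genes, Sema3a, Sema5a and Sema4f, all 4 mutant libraries lay below all 4 control libraries (4.62%, against 1.74% of all genes). The mean of Sema5a was 114 ± 7.47 CPM over controls against 96.9 ± 3.55 over mutants (SD, n = 4 each). Sema4f, a membrane semaphorin, was at 34.2 and 36.5 CPM in female controls, 36.4 and 33.2 in male controls, 32.4 and 30.9 in female mutants and 31.8 and 32.5 in male mutants, a log2 change of -0.14 (adjusted p = 0.898). In 0 guidance genes did all mutants lie above all controls, against 1.65% of all genes. In the authors' deposited table, whose model terms are not stated, 4 of the 65 (6.15%, against 4.05% of all genes) had a false discovery rate under 0.05: Sema3a at a log2 change of -0.53, Epha4 at 0.51, Efna3 at -0.55 and Sema5a at -0.22. Epha4 in this comparison stood at 0.48 ± 0.17 (adjusted p = 0.781), with the 4 female libraries overlapping between genotypes.

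The mutant effect was next compared between the sexes. The test of the difference called 0 guidance genes and 0% of all genes, with 12 of 65 at an unadjusted p under 0.05 (18.5%, against 12.5%). Epha4 had the smallest p: its log2 change was 0.92 ± 0.13 (SE) larger in males than in females, with edgeR adjusted p = 0.317, 0.00084 with the replicate block and 0.00175 by DESeq2. With the block 11 guidance genes passed (16.9%, against 9.33% of all genes). In 4 of them the change was more positive in males (Epha4, Epha7, Unc5c and Efna4), and in 7 it was more negative, Efna3, Sema7a, Nrp2, Epha1, Plxna2, Ntn1 and Sema3b. The difference was -1.05 ± 0.32 for Ntn1 (adjusted p = 0.364; 0.0396 with the block), 0.76 ± 0.25 for Efna4 (0.366; 0.0452) and 0.77 ± 0.34 for Unc5c (0.404; 0.00579). For Epha7 it was 0.77 ± 0.32 (adjusted p = 0.385; 0.00515 with the block) and for Efna3 -1.32 ± 0.58 (0.402; 0.0106). For Sema3a the difference was -0.31 ± 0.17 (adjusted p = 0.465; 0.228 with the block).

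**Figure D4:**
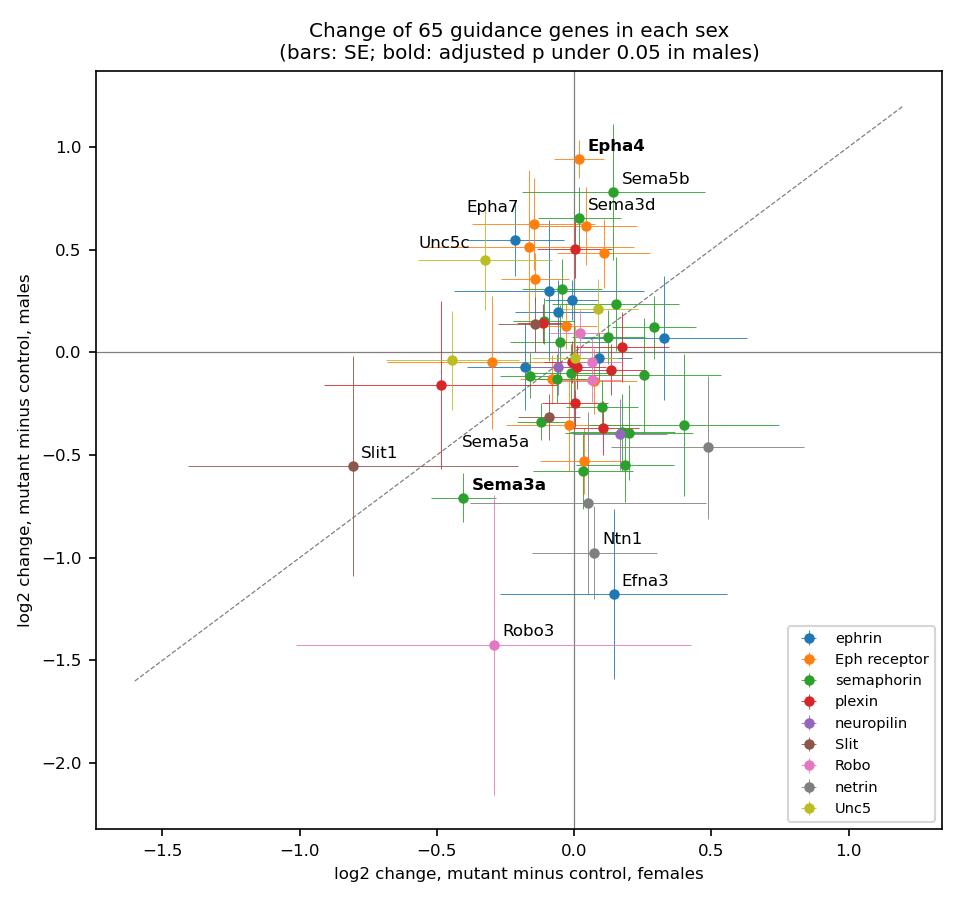
Log2 change of each guidance gene between mutant and control, in females (x axis) and in males (y axis), with bars of 1 SE; names in bold passed the test in males and the dashed line marks equal change. Epha4 lies at 0.94 in males and near 0 in females, and Sema3a lies below 0 in both sexes.

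The comparison of the sexes in controls shares the male controls with the male comparison, so its values are given beside those above and not as a separate result. It called 0 guidance genes (0.0385% of all genes), with 7 at an unadjusted p under 0.05 (10.8%, against 7.78%), and 4 with the block (6.15%, against 3.88% of all genes). Those 4 were Efna3 (0.83) and Sema7a (0.48), higher in male controls than in female controls, and Epha4 (-0.36) and Unc5c (-0.45), lower in male controls, all of which had the opposite sign in the male mutant comparison. Plxna4, a plexin of class 3 signalling, was at 21.8 and 20.5 CPM in female controls, 25.4 and 36.2 in male controls, 25.6 and 22.1 in female mutants and 32.0 and 30.7 in male mutants (0.54 in controls, adjusted p = 0.602). In mutants the sexes differed in 0 guidance genes (0.0385% of all genes were called), with 9 at an unadjusted p under 0.05 (13.8%, against 5.35%). With the block Epha4 and Epha7 were higher in male mutants than in female mutants (3.08%, against 1.81% of all genes). Epha10, an Eph receptor without kinase activity, was near the low end at 0.636 to 0.887 CPM in the female and 1.03 to 1.56 in the male libraries, with adjusted p = 0.602 in controls and 0.882 in mutants.

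Genes that work with these families were read from 3 lists. Of 18 co-receptors and further ligands tested, 1 was called in males, against 1.29% of all genes: L1cam, an adhesion molecule that acts as co-receptor of Sema3a with Nrp1, fell. It was at 24.6 and 25.1 CPM in male controls, 11.5 and 10.4 in male mutants, 24.98 and 24.4 in female controls and 17.47 and 22.3 in female mutants. All 4 mutant libraries were below all 4 controls, and the male change was -1.18 ± 0.15 (SE; edgeR adjusted p = 0.0271). With the block 7.3% of all genes rose in males and 9.43% fell, shares to set beside all 3 lists. Of the 18, 0 rose and 4 fell. Of 52 cytoplasmic partners and effectors 0 were called in males, and 4 rose and 3 fell with the block; the smallest p belonged to Mical2, an enzyme of actin disassembly (-0.67, adjusted p = 0.0904), and Grb10, an adaptor of receptor kinases (0.49, 0.102). Of 8 proteases that cleave guidance proteins 0 were called, and 1 rose and 1 fell with the block; Mmp2, a matrix metalloprotease, was at 271 and 286 CPM in male controls and 362 and 371 in male mutants (0.40, adjusted p = 0.0991; 0.00998 with the block). In females and over both sexes 0 genes of the 3 lists were called. In the difference between sexes 0 were called. With the block, where 9.33% of all genes passed, 2 co-receptors were more negative in males, and 3 effectors were more positive and 2 more negative. The netrin receptor gene Dcc was not tested.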

How the data were processed

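RNA of embryonic lungs was sequenced in 8 TruSeq v2 libraries, per the labels' protocols. The authors deposited raw read counts and RPKM per gene and library, with their own log2 fold changes, log2 mean abundance, likelihood ratio score and p-values with false discovery rates, per the file headers. The submitters' processing notes name, without roles, STAR 2.5.2b, HTSeq 0.6.1p2, edgeR 3.16.5, Trimmomatic 0.35 and cutadapt 1.13. No genome build or strand setting is stated in the sources used here. Gene totals began at 28 reads. Coordinates and transcript lengths are from GENCODE M21 (GRCm38) and promoters from RefSeq (GRCm38.p6).

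The counts entered edgeR 4.0.16 under R 4.3.3 (TMM factors 0.975 to 1.02, filterByExpr with minimum count 10, quasi-likelihood, two-sided, Benjamini-Hochberg over 18164 genes, threshold 0.05). The comparison over both sexes had a term for sex, and the other comparisons used 4 group means over all libraries. CPM was scaled by the TMM library size, and SE is the size of the log2 change over the root of F. The code was tested on simulated data. These held changes in male mutants only and no difference tied to the replicate number, so they could not check how the block handles such a difference. Alternatives were DESeq2 1.42.0, limma 3.58.1 (voom), other scalings and filters, the replicate block, leaving out each library, fitting only the groups compared, and the authors' deposited comparison. Libraries of 1 group differed by 14.6 to 21.1 times the sampling variance and each counted as a sample. The deviations of same-numbered libraries correlated at 0.180 to 0.626 over 12793 genes in the 6 pairs of groups, all above 0.1, so the number was taken to pair them; the labels do not say what it marks.

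Members, lists and the naming rule were chosen with earlier results of these data known. Values were given for genes called in any comparison, up to 10 called with the block in the difference, the 12 smallest p in males, the 3 smallest in each other comparison, the highest RPKM per family, and genes whose 4 mutants lay apart from 4 controls; Epha3, Sema5b, Slit2 and other genes beyond the rule were chosen after their values were seen.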

Additional observations from a re-analysis of the deposited data

How the results depend on the processing

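The count of guidance genes called in males was 2 and became 20 with the replicate block, 4 by DESeq2 and 3 with only the male libraries fitted, while the share of all genes called went from 1.29% to 16.7%, 4.71% and 2.47%; leaving out 1 library gave 0 to 2, with 0 without control male 1, mutant male 1 or mutant male 2, and 1 without control male 2. In the difference between sexes the block gave 11 (9.33% of all genes called) and DESeq2 1 (1.04%), against 0. For males against females in controls the block gave 4 (3.88% of all genes) and DESeq2 0 (0.0551%). For the same comparison in mutants the block gave 2 (1.81% of all genes) and DESeq2 1 (0.44%). Over both sexes DESeq2 gave 1 (0.484% of all genes) and the deposited comparison of the authors gave 4 (4.05%), against 0. The cause of these changes was not tested. In females the count was 0 under every alternative run. Other scalings, filters and limma-voom gave the same counts as the reported fit in all 6 comparisons. A further check followed 34 values, each 1 gene in 1 comparison, picked for small p in these same libraries. Many values given above, such as the male changes of Efna3 and Epha7, were not among them. Over 534 alternatives, 495 kept direction and side of the threshold, 7 lost the call, 32 gained it and 0 reversed. All 7 losses fell on Epha4 and Sema3a in males, on leaving out 1 male library. These were the only values called at the start. The choice by small p favoured a kept direction, so these counts do not measure robustness. With the block, calls also changed for genes of the partner and marker lists, not all of them listed here; the block called 0 guidance genes in females and over both sexes. Genes such as Slit1, with 57 reads in all, and Robo3 are limited by depth.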

Other observations

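Libraries numbered 2 differed from those numbered 1 in several guidance genes, whatever the genotype and sex; the examples were picked with their values known, and the labels do not say what the number marks. Number 2 was lower in all 4 groups in 15 guidance genes (23.1%, against 17.1% of all genes) and higher in all 4 in 7 (10.8%, against 15.4%). Among the lower were the ephrin gene Efna3 (log2 difference -0.75), the secreted semaphorin gene Sema3b (-0.61) and Nrp2 (-0.29). Among the higher were the receptor genes Epha5 (0.65), Unc5c (0.44) and Epha7 (0.41).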
